A study of Mus musculus with 11 samples.

Results

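The 8 genes described here encode proteins that carry, import and activate fatty acids in liver cells: Fabp1, Fabp4, Fabp5, Dbi, Scp2, Slc27a2, Acsl1 and Acsl5. They were chosen as a functional group by Ensembl identifier, with earlier results of these data known. Values of the members set beside those of all genes are therefore descriptions, not tests of the group. All 8 were found among the 22019 genes of the deposited count table. The measurements are ribosome footprints from livers of male wild-type (WT) mice on a High Fat High Sugar diet (HFHS, whose columns are headed HFD) or a Chow Diet, with no further treatment. Fragments of about 60 nt (disomes, protected by ribosomes packed directly against each other) and of about 30 nt (monosomes, protected by single ribosomes) were counted over coding sequences in 2 HFHS and 3 chow disome libraries and in 3 HFHS and 3 chow monosome libraries. The labels give neither the age of the mice nor whether the samples are from different animals, so the p-values cover only the spread among these libraries, which may be technical.

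A fatty acid that enters a hepatocyte is trapped by conversion to its coenzyme A ester. Slc27a2 (ENSMUSG00000027359, also called FATP2) is a membrane protein that takes part in fatty acid uptake and is itself an acyl-CoA synthetase for very long chains, while Acsl1 (ENSMUSG00000018796) and Acsl5 (ENSMUSG00000024981) activate long-chain fatty acids. Free fatty acids are carried in the cytosol by the fatty acid binding proteins, of which Fabp1 (ENSMUSG00000054422) is the abundant form of hepatocytes, Fabp4 (ENSMUSG00000062515) is known from adipocytes and macrophages, and Fabp5 (ENSMUSG00000027533) is found in skin, macrophages and other cells. Dbi (ENSMUSG00000026385) is the acyl-CoA binding protein, which carries the activated esters. Scp2 (ENSMUSG00000028603) encodes a sterol and lipid carrier protein and, from the same gene, a peroxisomal thiolase. Several genes of this pathway are targets of the nuclear receptor PPARA, which binds DNA as a dimer with RXR at direct repeats of a half-site with 1 base between the repeats (DR1).

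Promoter sequences are shown for the members in whose window a half-site was found, since these members include Slc27a2, the 1 gene of the 8 called with diet in both footprint classes. RefSeq promoter windows (GRCm38.p6, 250 bases before to 50 after an annotated start) matched 6 of the 8 members by symbol, in 8 windows. Of these, 4 lay at the outer start of the gene's RefSeq bounds, including those of Slc27a2 and Fabp1, and 4 at a start inside the gene. The start of the 1 Scp2 window lies 26424 bases inside the gene, so the window at the outer start of Scp2 was not searched. The start of the Acsl5 window lies 1508 bases inside the gene, and Acsl1 and Dbi each had 1 window at the outer start and 1 inside. Fabp4 and Fabp5 had no entry. Both strands were searched for the half-site AGGTCA, for the exact DR1 AGGTCANAGGTCA, for a relaxed DR1 AGGNCANAGGNCA that contains the exact one, and for the TATA box TATAAA. Capitals below mark these matches.
Slc27a2, chr2:126552774-126553073, plus strand: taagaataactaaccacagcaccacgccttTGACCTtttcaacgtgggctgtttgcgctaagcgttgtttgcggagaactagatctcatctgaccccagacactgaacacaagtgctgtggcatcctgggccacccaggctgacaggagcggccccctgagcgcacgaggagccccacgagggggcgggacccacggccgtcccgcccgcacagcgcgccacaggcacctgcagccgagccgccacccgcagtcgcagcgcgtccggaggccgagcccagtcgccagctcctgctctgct
Fabp1, chr6:71199629-71199928, plus strand: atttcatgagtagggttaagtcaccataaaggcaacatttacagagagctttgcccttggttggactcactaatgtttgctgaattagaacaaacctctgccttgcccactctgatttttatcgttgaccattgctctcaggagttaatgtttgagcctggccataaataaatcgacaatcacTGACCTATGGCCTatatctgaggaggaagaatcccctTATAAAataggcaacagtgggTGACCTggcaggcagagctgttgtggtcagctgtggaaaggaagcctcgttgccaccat
Scp2, chr4:108118498-108118797, minus strand: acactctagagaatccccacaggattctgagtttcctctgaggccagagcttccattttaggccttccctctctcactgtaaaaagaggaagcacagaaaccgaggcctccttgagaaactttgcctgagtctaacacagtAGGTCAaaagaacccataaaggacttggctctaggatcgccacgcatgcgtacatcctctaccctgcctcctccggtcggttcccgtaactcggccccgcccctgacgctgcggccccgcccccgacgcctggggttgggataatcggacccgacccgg
The Fabp1 window held 1 relaxed DR1, TGACCTATGGCCT on the minus strand from base -67 to base -55 relative to the start, whose first 6 bases are a half-site. It also held a second half-site from base -9 to base -4 and a TATA box from base -30 to base -25. The Slc27a2 window held 1 half-site, from base -220 to base -215, and the Scp2 window held 1, from base -109 to base -104 relative to its internal start. The windows of Dbi, Acsl1 and Acsl5 held none of these letters. Of 32851 windows in the table, 16.3% held the half-site, 0.381% the relaxed DR1, 0.0396% the exact DR1 and 13.6% the TATA box. Fabp1 and Scp2, whose windows held a half-site, were not called with diet in either class. Acsl1 and Acsl5, whose windows held no match, were called in monosomes. A match is a description of letters, and binding of a factor was not measured. A link between matches and diet was not tested.

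Total counts were 235748 to 238837 in HFHS disome libraries, 147212 to 279331 in chow disome libraries, 1196240 to 1612324 in HFHS monosome libraries and 795145 to 1248781 in chow monosome libraries. Columns carry a sample barcode and no replicate number, so libraries are named by barcode. Values of single libraries follow one order throughout: in HFHS the library CTAGA comes first, then GATCA (monosomes only) and last GCATA, and in chow AGCTA comes first, then ATCGT and last CGTAA. The chow libraries AGCTA stood apart from the others of their group in both footprint classes. Over 2160 genes with a mean above 50 CPM (counts scaled to a common library size), AGCTA correlated with the other chow disome libraries at r = 0.80 each, against 0.96 between those. In chow monosomes the values for AGCTA were r = 0.82 and 0.83, against 0.98 between the other chow libraries. What sets AGCTA apart was not tested, and results that rest on it are given with and without it. RefSeq lists pseudogene copies of Fabp5, Dbi and Scp2, and since the handling of reads shared between copies is not stated, the counts of these genes are uncertain in that respect. The other genes of the table carry no names here, so the lists of further pathway genes and of hepatocyte, adipocyte, endothelial, macrophage, acinar and stellate markers were not analysed.

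The 8 genes together took 3.00% and 2.50% of counts in HFHS disomes, and 2.45%, 2.34% and 2.58% in chow disomes. In monosomes they took 1.74%, 1.60% and 1.51% in HFHS and 1.37%, 1.32% and 1.45% in chow. Every disome library thus held a larger summed share of these genes than any monosome library. The HFHS monosome libraries all lay above the chow ones, whereas the disome libraries of the diets overlapped. Fabp1 and Scp2 were the largest parts of the sum in every library. Slc27a2 went the other way between the classes, with 0.056% to 0.103% of disome counts and 0.117% to 0.186% of monosome counts.

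The first comparison asked how the monosome level of each gene differed between the diets. Slc27a2, Acsl1 and Acsl5 were called higher in HFHS livers, by 1.50, 1.30 and 1.41-fold, the last 2 close to the threshold. None of the 8 passed the test as lower, and the binding proteins Fabp1, Fabp4, Fabp5 and Dbi and the carrier Scp2 did not pass it. Whether the genes for uptake and activation differ in their change from those for binding was not tested. The test was edgeR's quasi-likelihood F-test with Benjamini-Hochberg adjustment over 6754 genes, with a threshold of 0.05 for calling a gene higher or lower. Among all genes tested 3.02% were called higher and 1.63% lower, against 3 and 0 of the 8 members. The members had a median log2 fold change of 0.22, against -0.016 for all genes tested. Because earlier results were known when the members were chosen, these figures only describe them. In these bulk samples a change in mRNA level, in ribosomes per mRNA and in the share of a cell type cannot be told apart, and fewer cells of a type cannot be told from less RNA per cell.

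Slc27a2 had 1840, 1908 and 1884 CPM in HFHS monosomes, against 1200, 1245 and 1321 CPM in chow monosomes. CPM are scaled within each comparison by the trimmed mean of M values (TMM). The diets were widely separated, with the lowest HFHS library far above the highest chow library. The log2 fold change was 0.58 ± 0.11 (SE, adjusted p = 0.00111, n = 3 each). Leaving out each library in turn kept the call, with log2 fold changes from 0.55 to 0.62, and without the chow library AGCTA it was 0.55 (adjusted p = 0.0134).

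Acsl1 had 1757, 1713 and 1803 CPM in HFHS monosomes, against 1317, 1417 and 1318 CPM in chow monosomes, a log2 fold change of 0.38 ± 0.11 (adjusted p = 0.0382). All HFHS libraries lay above all chow libraries. Acsl5 had 474, 454 and 505 CPM in HFHS monosomes, against 349, 391 and 279.9 CPM in chow monosomes, a log2 fold change of 0.49 ± 0.14 (adjusted p = 0.0394). Its groups did not overlap either, with the chow library CGTAA lowest. Both calls lay close to the threshold. Both missed it without robust estimation (adjusted p = 0.0762 for Acsl1 and 0.0919 for Acsl5) and with all 11 libraries in 1 fit (0.0838 and 0.0823), and Acsl5 also with a minimum count of 50 (0.0527). They were also lost when any library other than the chow library ATCGT was left out, with adjusted p from 0.0748 to 0.158 for Acsl1 and from 0.0591 to 0.253 for Acsl5. The log2 fold changes then stayed between 0.36 and 0.40 for Acsl1 and between 0.37 and 0.53 for Acsl5. Without the chow library AGCTA they were 0.36 (adjusted p = 0.158) and 0.51 (adjusted p = 0.0823).

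Scp2 had 5986, 6099 and 5723 CPM in HFHS monosomes, against 4763, 5050 and 5065 CPM in chow monosomes. The groups did not overlap, but the log2 fold change of 0.26 ± 0.087 had an adjusted p of 0.0891 and did not pass. Groups did not overlap, in either direction, for 5 of the 8 members and for 21.6% of all genes tested. The Pearson correlation over the 6 monosome libraries of log2(CPM + 1) between Scp2 and Slc27a2 was 0.98. Among 2100 genes with a mean of at least 50 CPM, 5 followed Scp2 more closely than Slc27a2 did, the closest being ENSMUSG00000053898 (r = 0.99). For Fabp1 the closest gene was ENSMUSG00000035504 (r = 0.98). These libraries share the split by diet, so the correlations are given as descriptions only.

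Fabp1 had 6741, 5057 and 4711 CPM in HFHS monosomes, against 5036, 4424 and 5135 CPM in chow monosomes. The groups overlapped, and CTAGA was the highest library. The log2 fold change was 0.18, with a 95% interval from -0.058 to 0.41 (adjusted p = 0.463). Dbi had 1168, 1181 and 931 CPM in HFHS monosomes, against 1196, 924 and 936 CPM in chow monosomes, a log2 fold change of 0.10 with an interval from -0.16 to 0.37 (adjusted p = 0.767). Its groups overlapped, with GCATA at the chow level and AGCTA at the HFHS level. Without AGCTA the log2 fold change of Dbi was 0.23 (adjusted p = 0.488).

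Fabp5 had 35.9, 27.5 and 42.3 CPM in HFHS monosomes, against 133, 44.2 and 76.9 CPM in chow monosomes. The HFHS libraries all lay below the chow ones, but ATCGT was close to the highest of them and AGCTA was far above the rest. The log2 fold change was -1.19 ± 0.41 and did not pass (unadjusted p = 0.0223, adjusted p = 0.198). DESeq2 did call it lower (adjusted p = 0.00504), as did edgeR without robust estimation (adjusted p = 0.0324) and with no filter (adjusted p = 4.13e-06). It was -0.75 without AGCTA (adjusted p = 0.113) and -1.52 without ATCGT (adjusted p = 0.00103). Fabp4 was near the limit of counting, with 22, 17 and 13 counts in HFHS monosomes and 18, 11 and 13 counts in chow monosomes. Its groups overlapped, and the interval of its log2 fold change ran from -0.84 to 0.61 (adjusted p = 0.927). Changes within that range remain compatible with the data at this depth.

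**Figure D1:**
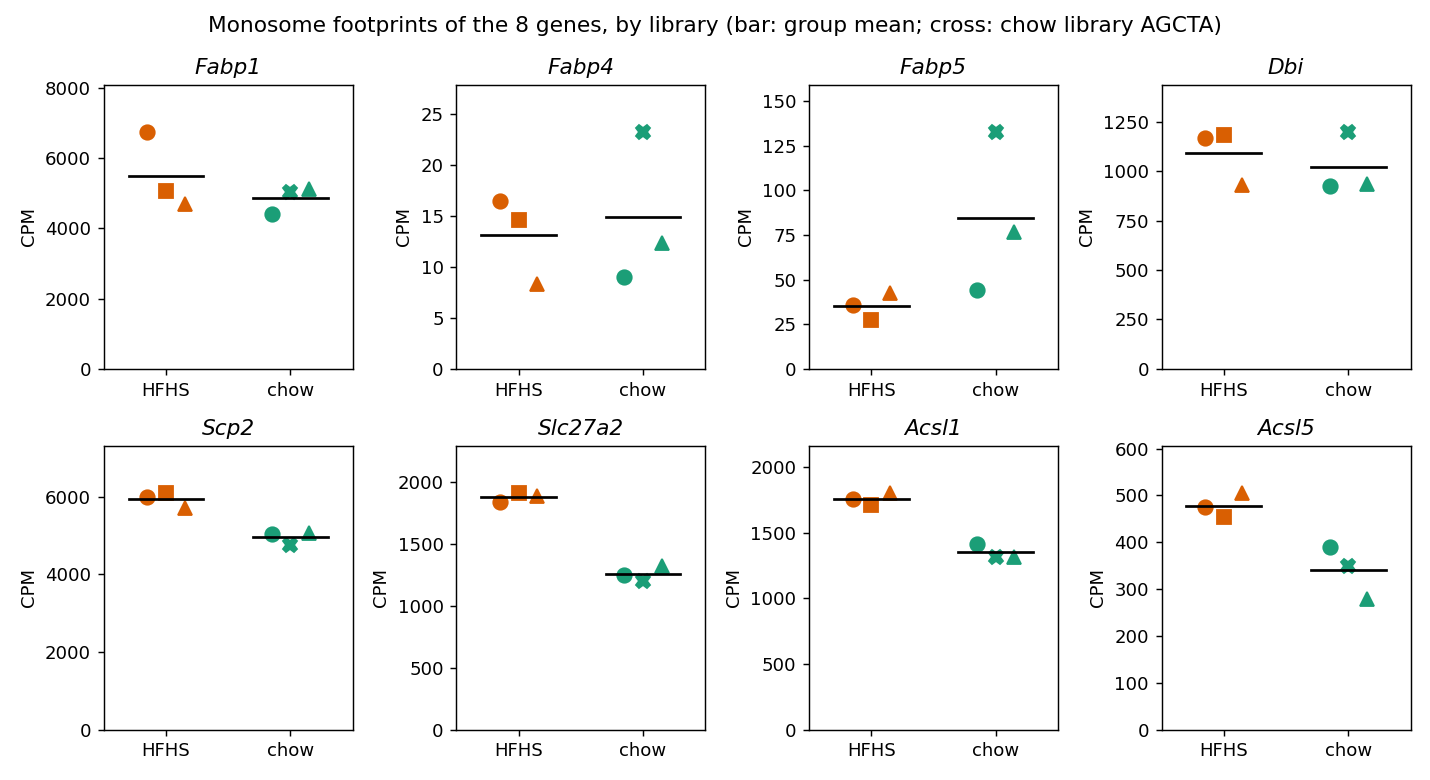
Monosome footprint level in CPM (vertical axis, from 0) of each of the 8 genes in 3 HFHS libraries (orange: circle CTAGA, square GATCA, triangle GCATA) and 3 chow libraries (green: circle ATCGT, cross AGCTA, triangle CGTAA), with group means as bars. The diets do not overlap for Fabp5, Scp2, Slc27a2, Acsl1 and Acsl5, and the cross lies far above the other chow libraries for Fabp5.

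The second comparison concerned the disome level of each gene between the diets. Slc27a2 was again called higher in HFHS, by 1.72-fold, and Fabp5 was called 2.54-fold lower. Of the 8 genes, 7 passed the count filter among 2804 genes tested, with Fabp4 left out for its low counts. Of all genes tested, 1.82% were called higher and 1.14% lower. The 7 members tested had a median log2 fold change of 0.20, against -0.025 for all genes tested.

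Slc27a2 had 1086 and 1146 CPM in HFHS disomes, against 648, 666 and 632 CPM in chow disomes. The HFHS libraries lay well above a narrow range of chow libraries. The log2 fold change was 0.78 ± 0.18 (adjusted p = 0.00150, n = 2 and 3), 0.77 without AGCTA (adjusted p = 0.0204) and 0.75 without the HFHS library GCATA, where it missed the threshold (adjusted p = 0.110). In that last fit the lone HFHS library is assumed to vary as the chow libraries do.

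Acsl1 had 2706 and 3015 CPM in HFHS disomes, against 1945, 2252 and 2031 CPM in chow disomes, a log2 fold change of 0.46 ± 0.17 (adjusted p = 0.126). Acsl5 had 729 and 714 CPM in HFHS disomes, against 695, 711 and 499 CPM in chow disomes, a log2 fold change of 0.20 ± 0.19 (adjusted p = 0.727). Scp2 had 12353 and 11060 CPM in HFHS disomes, against 9044, 10642 and 9147 CPM in chow disomes, a log2 fold change of 0.28 ± 0.15 (adjusted p = 0.420). For all 3 genes both HFHS libraries lay above every chow library, although GCATA exceeded ATCGT only narrowly for Acsl5, and none passed the test. Groups did not overlap, in either direction, for 28.2% of all genes tested, and for 5 of the 7 members tested and the untested Fabp4.

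Fabp5 had 65.0 and 97.4 CPM in HFHS disomes, against 375, 132 and 168 CPM in chow disomes. The counts behind these were 14 and 21 in HFHS and 48, 29 and 44 in chow. Both HFHS libraries lay below all chow libraries, and AGCTA was again the highest of all. The log2 fold change was -1.34 ± 0.31 (adjusted p = 0.00126). It missed the threshold without AGCTA (-0.90, adjusted p = 0.226), without CGTAA (-1.52, adjusted p = 0.0924) and without the HFHS library CTAGA (-1.12, adjusted p = 0.127). With DESeq2 the adjusted p was 0.385, and with all 11 libraries in 1 fit it was 0.592.

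Fabp1 had 13625 and 9821 CPM in HFHS disomes, against 12176, 9939 and 12606 CPM in chow disomes. The HFHS libraries lay on either side of the chow libraries, with a log2 fold change of 0.019 and an interval from -0.28 to 0.32 (adjusted p = 0.986). Dbi had 2200 and 1856 CPM in HFHS disomes, against 3226, 1760 and 2331 CPM in chow disomes, a log2 fold change of -0.26 with an interval from -0.59 to 0.079 (adjusted p = 0.562). The groups overlapped, and AGCTA was the highest library, as for Fabp5. Without AGCTA the log2 fold change of Dbi was -0.024 (adjusted p = 0.980). Fabp4 had 3 and 2 disome counts in HFHS and 6, 7 and 12 in chow, where 3 counts correspond to 12.6 to 12.7 CPM in HFHS and to 10.7 to 20.4 CPM in chow. Its HFHS libraries were thus at or below 3 counts, and its chow libraries were not.

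**Figure D2:**
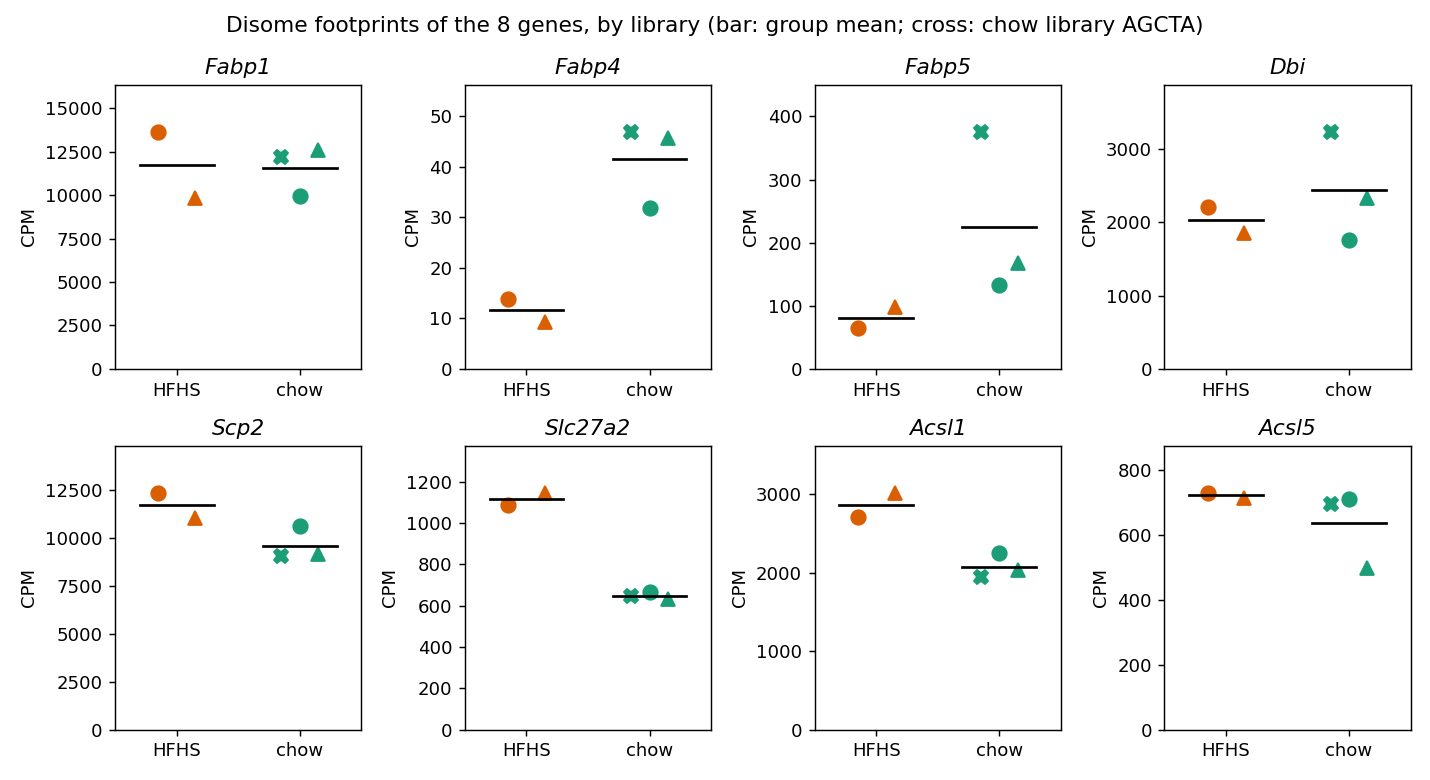
Disome footprint level in CPM (vertical axis, from 0) of each of the 8 genes in 2 HFHS libraries (orange: circle CTAGA, triangle GCATA) and 3 chow libraries (green: cross AGCTA, circle ATCGT, triangle CGTAA), with group means as bars. Both HFHS points lie above the chow points for Slc27a2, Scp2, Acsl1 and Acsl5 and below them for Fabp5 and Fabp4.

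The third comparison tested whether the diet effect on disomes differed from that on monosomes for the same gene, in 1 edgeR model over all 11 libraries. None of the 8 genes passed, and of 7236 genes tested 0% were called higher and 0% lower. With edgeR, 358 of those genes had an unadjusted p below 0.05, and DESeq2 called 0 genes, with 217 at an unadjusted p below 0.05. With the barcode as a block edgeR called 7 genes lower, none of them a member. For Slc27a2 the diet effect was 0.78 in disomes and 0.58 in monosomes (log2), with a difference of 0.29 in the joint model and an interval from -0.10 to 0.68. For Acsl1 the difference was 0.17 (interval -0.20 to 0.54), for Scp2 0.11 (-0.18 to 0.40) and for Fabp1 -0.068 (-0.45 to 0.31). Differences within these bounds remain compatible with the data, and the diet effects are not shown to be equal. Acsl5 differed by -0.22 (-0.70 to 0.27) and Dbi by -0.27 (-0.72 to 0.18). The difference for Dbi was -0.043 without the disome library AGCTA and -0.40 without the monosome library AGCTA. The interval of Fabp5 was the widest, from -2.03 to 1.89 around -0.068. Fabp4 had a difference of -1.61 ± 0.77 with an unadjusted p of 0.0395 and an adjusted p of 1.00, on 5 HFHS disome counts in all.

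**Figure D3:**
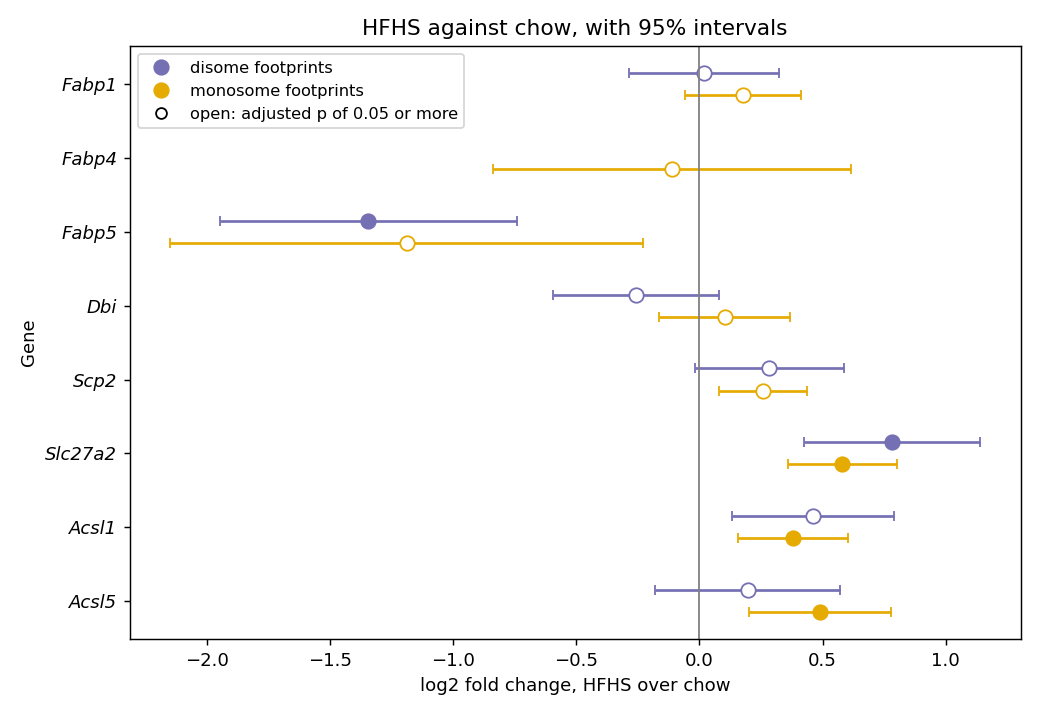
Log2 fold change of HFHS over chow (horizontal axis) for each gene, in disome (purple) and monosome (yellow) footprints, with 95% intervals from the edgeR fit and filled points for adjusted p below 0.05. Slc27a2 is filled in both classes, Acsl1 and Acsl5 in monosomes, and Fabp5 in disomes. Fabp4 was tested in monosomes only.

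The remaining comparisons asked how many disomes each gene carried relative to its monosomes, in HFHS and in chow livers. Slc27a2 was the only member called lower in disomes, by 1.95-fold in HFHS and 2.27-fold in chow. Fabp1, Dbi, Scp2 and Acsl1 were called higher in disomes in both diets. Fabp5 was called higher in HFHS only, and Fabp4 and Acsl5 in chow only, a difference between diets that the third comparison did not call for any of these 3 genes. In HFHS 5 members were higher and 1 lower among 7437 genes tested, of which 11.5% were higher and 13.6% lower. In chow 6 were higher and 1 lower among 4713 genes tested, of which 21.6% were higher and 23.3% lower. The 6 include Fabp4, which passed the count filter of that fit only through its disome libraries, where it is high. The median log2 ratio of the members was 0.58 in HFHS and 0.87 in chow, against -0.070 and -0.012 for all genes tested. The column names of the footprint classes differ in their prefix, and the labels do not say whether the classes were prepared or sequenced together. A batch difference between the classes, if any, cannot be told from footprint class. Ratios are relative to the average gene.

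Slc27a2 had 941 and 1013 CPM in HFHS disomes, against 1862, 1934 and 1913 CPM in HFHS monosomes, a log2 ratio of -0.96 ± 0.14 (adjusted p = 3.00e-06). In chow it had 594, 623 and 587 CPM in disomes, against 1308, 1337 and 1449 CPM in monosomes, for a log2 ratio of -1.18 ± 0.14 (adjusted p = 5.55e-09). No disome library came near any monosome library in either diet. Leaving out each library in turn kept both calls, with log2 ratios from -1.04 to -0.93 in HFHS and from -1.27 to -1.17 in chow.

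Fabp1 had 11808 and 8680 CPM in HFHS disomes, against 6825, 5125 and 4785 CPM in HFHS monosomes, which gave a log2 ratio of 0.88 ± 0.15 (adjusted p = 0.000356). In chow it had 11156, 9298 and 11708 CPM in disomes, against 5492, 4752 and 5634 CPM in monosomes, for a log2 ratio of 1.02 ± 0.11. The ordering of libraries was shared between the classes: CTAGA was highest in HFHS and ATCGT lowest in chow in both. Dbi had 1907 and 1640 CPM in HFHS disomes against 1183, 1197 and 945 CPM in HFHS monosomes, a log2 ratio of 0.68 ± 0.14 (adjusted p = 0.000475). In chow its disome level was 2955, 1646 and 2165 CPM against 1304, 993 and 1027 CPM in monosomes, for a log2 ratio of 1.02 ± 0.17 (adjusted p = 4.41e-05). AGCTA was the highest chow library for Dbi in both classes, and no disome library overlapped with a monosome library. Leaving out each library in turn kept the call of Dbi in chow, with log2 ratios from 0.75 to 1.14.

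Scp2 was higher in disomes by a log2 ratio of 0.77 ± 0.11 in HFHS (adjusted p = 5.45e-06) and 0.73 ± 0.11 in chow (adjusted p = 1.24e-06), with 9775 to 10706 CPM against 5812 to 6181 CPM in HFHS and 8287 to 9955 CPM against 5194 to 5557 CPM in chow. The disome libraries of Scp2 all lay far above its monosome libraries. Acsl1 had smaller ratios of 0.49 ± 0.13 in HFHS (adjusted p = 0.00454) and 0.39 ± 0.13 in chow (adjusted p = 0.0114). The first missed the threshold without the disome library GCATA (adjusted p = 0.0977). The second missed it without the monosome libraries AGCTA (adjusted p = 0.0577) or CGTAA (adjusted p = 0.0760) or the disome library ATCGT (adjusted p = 0.160), the log2 ratio being 0.26 in that last fit, and with no filter it was 0.21 (adjusted p = 0.306). With DESeq2 the chow value had an adjusted p of 0.0530, and with no filter the HFHS value had one of 0.0569. Acsl5 had a log2 ratio of 0.38 ± 0.15 in HFHS (adjusted p = 0.0584) and 0.66 ± 0.16 in chow (adjusted p = 0.000821). Its value in HFHS passed with upper-quartile normalization (adjusted p = 0.0243) and with the barcode as a block (adjusted p = 0.0176).

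Fabp5 had 56.3 and 86.1 CPM in HFHS disomes, against 36.3, 27.8 and 43.0 CPM in HFHS monosomes, a log2 ratio of 0.97 ± 0.32 (adjusted p = 0.0241). It missed the threshold without the disome library GCATA (0.62, adjusted p = 0.390) and without the monosome library GATCA (0.84, adjusted p = 0.0567), with DESeq2 (adjusted p = 0.0823), with no filter (adjusted p = 0.0552) and with all 11 libraries in 1 fit (adjusted p = 0.338). In chow it had 343, 124 and 156 CPM in disomes, against 145, 47.4 and 84.3 CPM in monosomes. For each barcode the disome value exceeded the monosome value of the same barcode, but the wide spread among barcodes made the groups overlap, and the log2 ratio of 1.11 ± 0.63 did not pass (adjusted p = 0.228). With the barcode as a block it was 1.15 (adjusted p = 3.58e-08), and without the monosome library AGCTA it was 1.51 (adjusted p = 0.0151). With 1 library left out the ratio in chow ranged from 0.64 to 1.51. Whether a barcode stands for 1 animal is not said in the labels. Fabp4 had a log2 ratio of 1.32 ± 0.41 in chow (adjusted p = 0.00775), on 6, 7 and 12 disome counts against 18, 11 and 13 monosome counts. These are 29.9 to 42.9 CPM in disomes and 9.66 to 25.3 CPM in monosomes. Fabp4 passed the count filter of this fit only through the disome libraries, where it is high, so its call is a description only. It missed the threshold without the monosome library ATCGT (0.97, adjusted p = 0.0725) and without the disome library CGTAA (1.17, adjusted p = 0.0841), and with DESeq2 (adjusted p = 0.107). In HFHS its log2 ratio was -0.36, with an interval from -1.74 to 1.02 (adjusted p = 0.745).

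**Figure D4:**
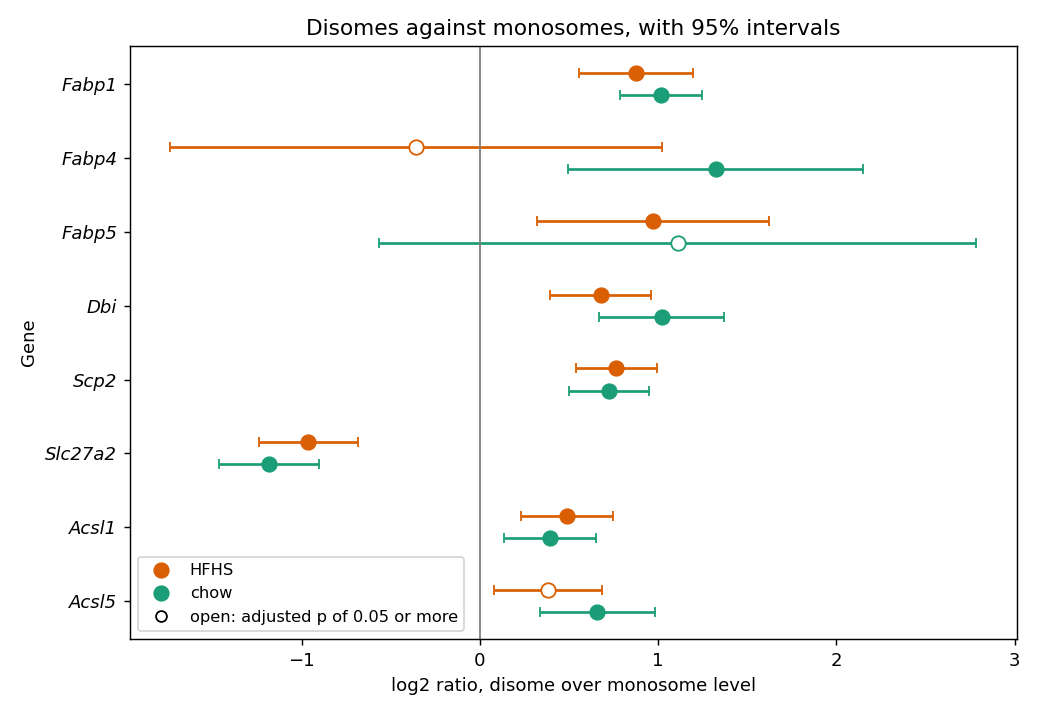
Log2 ratio of disome over monosome level (horizontal axis) for each gene in HFHS (orange) and chow (green), with 95% intervals from the edgeR fit and filled points for adjusted p below 0.05. Slc27a2 lies at -0.96 and -1.18, left of 0 in both diets, whereas Fabp1, Dbi, Scp2 and Acsl1 lie right of 0 in both.

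Ratios of counts within a library need no scaling between libraries and show the position of Slc27a2 directly. Per 100 counts of Scp2, Slc27a2 had 8.79 and 10.4 counts in HFHS disomes and 7.17, 6.26 and 6.91 counts in chow disomes. It had 30.7, 31.3 and 32.9 counts per 100 in HFHS monosomes and 25.2, 24.7 and 26.1 counts in chow monosomes. In each class all HFHS libraries lay above all chow libraries, and in each diet all disome libraries lay far below all monosome libraries. Slc27a2 therefore differed from Scp2 in both respects, which shows unequal change of the genes, not which of them changed. Acsl1 per 100 counts of Scp2 had 21.9 and 27.3 in HFHS disomes and 21.5, 21.2 and 22.2 in chow disomes, so that the diets overlapped. Its values were 29.3, 28.1 and 31.5 in HFHS monosomes and 27.6, 28.1 and 26.0 in chow monosomes, with the lowest HFHS library, GATCA, almost level with the highest chow library, ATCGT. Acsl5 per 100 counts of Scp2 ranged from 5.90 to 6.46 in HFHS disomes and from 5.46 to 7.69 in chow disomes. In monosomes it ranged from 7.44 to 8.83 in HFHS and from 5.53 to 7.74 in chow, again with overlap.

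**Figure D5:**
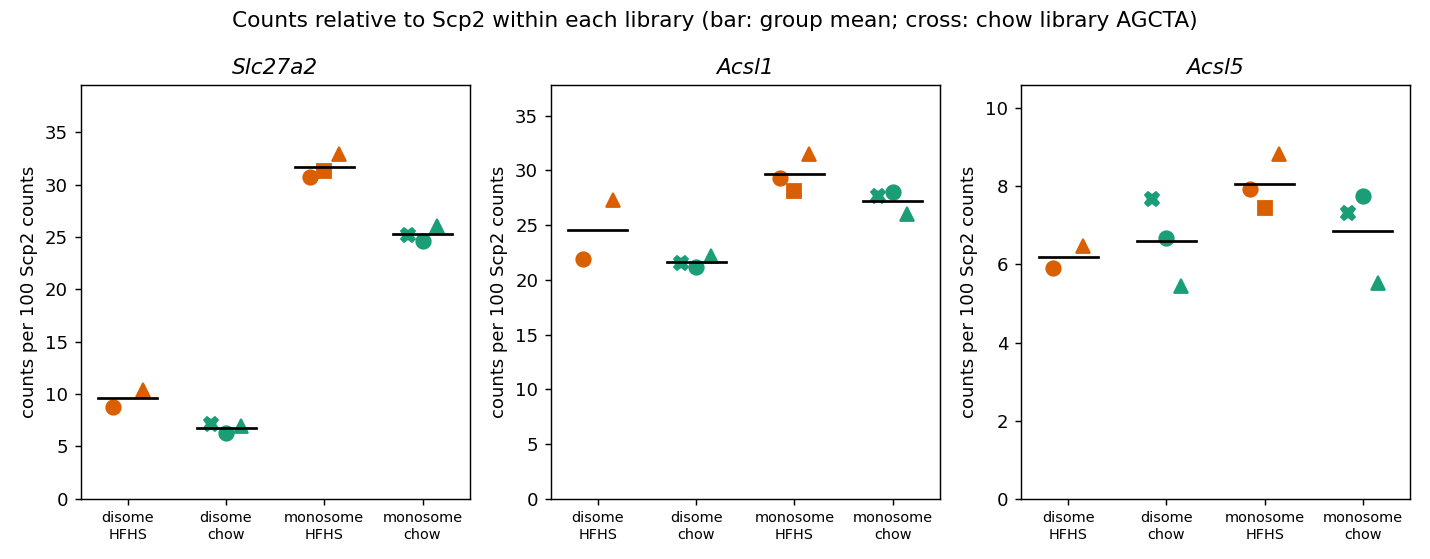
Counts of Slc27a2, Acsl1 and Acsl5 per 100 counts of Scp2 in the same library (vertical axes, from 0), for HFHS (orange) and chow (green) disomes and monosomes, with group means as bars and the symbols of the plots of levels by library. Slc27a2 has 8.79 to 10.4 against 6.26 to 7.17 in disomes and 30.7 to 32.9 against 24.7 to 26.1 in monosomes, whereas the diets overlap for Acsl5 in both classes and for Acsl1 in disomes.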

How the data were processed

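The authors deposited raw counts of footprints over coding sequences, not normalized, for 22019 genes in 11 libraries. Cutadapt 3.5 and Bowtie2 are named per the submitters' processing notes. Genome build, annotation, strand setting, treatment of reads shared between copies and use of the molecular identifiers: not given in the sources used here. Columns were placed in groups by footprint class and diet. They carry barcodes, not replicate numbers.

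Counts were tested with edgeR 4.0.16 (R 4.3.3), keeping genes by filterByExpr (minimum count 10), with TMM, a robust quasi-likelihood F-test, two-sided, and Benjamini-Hochberg adjustment over all genes tested. SE is the log2 fold change divided by the square root of F, and 95% intervals use the fit's t distribution. The procedure was tested on simulated counts with the same dispersion for every gene and no outlying library such as AGCTA. That test therefore does not cover results that rest on such a library. Alternatives were DESeq2 1.42.0, other filters, normalization and dispersion settings, all libraries in 1 fit, the barcode as a block, and each library left out. Members and lists were chosen with earlier results of these data known. All 8 members are named in every comparison. Member names are those listed with the identifiers, and 0 of 49997 RefSeq genes carried an Ensembl identifier. The rule for genes of like pattern took the highest Pearson r over monosome libraries at 50 CPM or more, printing 2 identifiers, the most abundant member first. Total counts, which set the precision, ran from 147212 to 1612324. Floors of 3 counts and all intervals cover no batch effect, and floors cover counting error only.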

Additional observations from a re-analysis of the deposited data

How the results depend on the processing

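Of 503 values of single members under alternatives, 444 kept their direction and their side of the threshold, 36 lost a call, 12 gained one and 11 changed sign, the last all among values that were not called. No paired analysis was possible by the labels' replicate numbers because the columns do not carry them, and disome and monosome libraries were paired by barcode instead (the barcode block). In monosomes 3 members were higher and 0 lower. DESeq2, no filter and a fit without robust estimation each called 1 lower (Fabp5). Of all genes, those fits called lower 55 of 2474, 146 of 13429 and 94 of 6754, against 110 of 6754 in the main fit. A fit without robust estimation and a fit of all 11 libraries each called 1 higher, and a minimum count of 50 called 2. Of all genes, those fits called higher 154 of 6754, 139 of 7236 and 125 of 2512, against 204 of 6754 in the main fit. Leaving out 1 library gave 1 to 3 higher and 0 to 1 lower. In disomes 1 member was higher and 1 lower. DESeq2, a minimum count of 50 (which removed Fabp5) and all 11 libraries in 1 fit each called 0 lower, and the last called 2 higher. Of all genes, those fits called lower 12 of 2837, 22 of 760 and 21 of 7236, against 32 of 2804 in the main fit. The fit of all 11 libraries called 51 of 7236 higher, against 51 of 2804. Leaving out 1 library gave 0 to 1 in each direction. For disomes against monosomes in HFHS, 5 members were higher, 3 with no filter and 3 to 6 with 1 library left out. Signs changed for Fabp1 in disomes with a minimum count of 50 (log2 fold change -0.019) and with 1 library left out (-0.22 to 0.24), and for Fabp4 in monosomes (-0.40 to 0.28). They also changed with 1 library left out for the difference of diet effects of Fabp1 (-0.32 to 0.11) and of Fabp5 (-0.51 to 0.37). The barcode block added calls for Acsl5 in HFHS (log2 ratio 0.35, adjusted p = 0.0176) and Fabp5 in chow, and removed none. Over all genes, 29 of 130 counts of calls moved by over 1.5 times, 17 of them with 1 library left out. DESeq2 called 55 genes lower with diet in monosomes, against 110 with edgeR, and in disomes 18 higher and 12 lower, against 51 and 32. For disomes against monosomes it called 515 higher and 631 lower in HFHS, against 854 and 1010, and 667 higher in chow, against 1017. A minimum count of 50 gave 125 higher with diet in monosomes, against 204, and 412 higher and 486 lower between the classes in chow, against 1017 and 1097. The number of genes tested differed between fits, so fewer calls need not be a smaller share. The minimum count of 50 left 2512 genes with diet in monosomes, against 6754, and 1436 between the classes in chow, against 4713. DESeq2 tested 2474 with diet in monosomes. No filter and all 11 libraries in 1 fit each gave 21 lower with diet in disomes, against 32. The barcode block called 7 lower for the difference of diet effects, against 0. With no filter, 671 genes were higher and 1218 lower between the classes in HFHS, and the median log2 ratio of all genes was -0.39 in HFHS and -0.27 in chow. Causes were not tested where none is named. Fabp4 and disome counts of Fabp5 are limited by depth.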
